A study of Drosophila melanogaster with 4 samples.

Results

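The Cpr genes of Drosophila melanogaster encode cuticle proteins that carry the Rebers and Riddiford (RR) motif. They were taken as the rows of the deposited FPKM table whose gene name starts with Cpr and a digit, which gave 70 of the 16680 rows, and all 70 Cpr genes of the current annotation were among them. The row named Cpr without a digit is an unrelated enzyme, the cytochrome P450 reductase, and was left out. The values come from polyA mRNA-seq of heads of adult male F1 flies. There were 2 libraries of flies with phenotypic variations of the eye (+ Phenotype) and 2 of flies with none (No Phenotype), with 10 heads pooled per library. Every library is labelled as head, although the design text of the series also names ovaries. The labels call the 2 libraries of a group biological repeats. All flies in both groups carried Kr[If-1], a dominant gain-of-function allele of the transcription factor gene Krüppel that is expressed in the ventral eye disc, in a stock that also carried an allele of black (b), a gene of cuticle tanning. The flies were progeny of parents exposed to Cr(VI) as K2Cr2O7. The general dose of the methods is 10 µM, and how the parents of the sequenced flies in particular were exposed is not spelled out there. No library of F1 flies from unexposed parents was analysed here, and no source used here gives the flies' age at collection. The comparison asked whether Cpr transcript levels differed between flies of one genotype that did and did not show the eye phenotype.

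Insect cuticle is made of chitin fibers embedded in proteins, and the RR motif is part of the domain by which most of these proteins bind chitin. RR-1 proteins are found mostly in soft and flexible cuticle and RR-2 proteins mostly in hard cuticle, and different members are made by the epidermis at different stages. Adult cuticle is laid down before the fly emerges and thickens in the days after, so the RNA of these genes in adult tissue depends on age. In the head the cuticle covers the capsule and mouthparts, and the corneal lens of each eye facet is a cuticular structure too. The number and letter in each name (47E, 65A) give the band of the polytene chromosome map, so names with the same number and letter mark neighboring genes. FPKM counts sequenced fragments relative to the length of the transcript and to the size of the library, and levels of different genes were therefore compared on it.

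From the spacing of the lowest values, 1 read on a transcript of 1 kb was worth 0.0187 and 0.0214 FPKM in + Phenotype and 0.0208 and 0.0192 FPKM in No Phenotype, so depth differed little between them. Markers of photoreceptors, neurons and glia were present in every library, as the label of head tissue requires. In the fit 5 of 6 photoreceptor, 5 of 5 neuron and 1 of 3 glia markers were higher in + Phenotype, beside 6396 of all 10194 genes tested. Their median log2 fold changes were 0.21, 0.10 and -0.13, beside 0.07 over all genes tested, and none passed the limma test. No marker list of another tissue was at 0 either. The 7 muscle markers summed to 3892.6 and 3500.5 FPKM in + Phenotype and to 5520.2 and 4940.4 FPKM in No Phenotype, and all 7 were lower in both + Phenotype libraries, beside 18.3% of all genes tested. None of the 7 passed the limma test (4 at an unadjusted p under 0.05). The 7 fat body markers summed to 428 and 166 FPKM in + Phenotype and to 1438.5 and 396 FPKM in No Phenotype, so these groups overlapped, but Fbp2 and Lsp1alpha, a fat body protein gene and a larval serum protein gene, passed the test at lower values in + Phenotype (adjusted p = 0.077 each by limma). Of the other 5, Fbp1 and Lsp2 had lower fitted values (log2 fold change -2.63 and -1.36). The yolk protein genes Yp1, Yp2 and Yp3 stood at only 1.18 to 2.85 FPKM over the libraries. Their fitted values were higher by 0.05, 0.01 and 0.11 on the log2 scale (SE 0.25, 0.25 and 0.11). None of these 5 passed. The 7 markers of the digestive tract summed to 81.4 and 212 FPKM in + Phenotype and to 349 and 56.7 FPKM in No Phenotype. In No Phenotype repeat 2 nearly all of the sum came from Amy-p and Amy-d (39.6 and 16.9 FPKM). There yip7, Jon65Aiv, Jon99Ciii, alphaTry and betaTry stood at 0 to 0.24 FPKM. Only betaTry separated the groups, with 3.61 and 8.84 FPKM in + Phenotype and 0.08 and 0 FPKM in No Phenotype. Of the epidermis and cuticle markers, Cht2, kkv, ple and Acp1 were lower in both + Phenotype libraries (log2 fold change -1.16, -1.39, -0.57 and -0.57). Ddc was higher in both, with 188 and 235 FPKM in + Phenotype and 156 and 180 FPKM in No Phenotype. None of these markers passed the limma test, and they are also in the gene lists of cuticle, chitin and tanning below. Whether differences in tissue content had a part in the Cpr values below was not tested. In a bulk sample, fewer cells of a type and less RNA per cell cannot be told apart.

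Cpr RNA in these heads came from few genes. Averaged over the 4 libraries, only 6 of the 70 reached 100 FPKM and 18 reached 10 FPKM, while 32 stayed under 0.5 FPKM and 3 were at 0 in every library (Cpr65Ax1, Cpr65Ay and Cpr67Fa1). Cpr100A alone made up 26.2% of the summed mean FPKM, the 3 highest genes made up 54.9% and the 8 highest 82.0%. The 3 highest were Cpr100A on 3R, Cpr65Au on 3L and Cpr62Bc on 3L, and the mean of each was above that of 97.5% or more of all rows of the table. Cpr97Eb, Cpr67B, Cpr49Ae, Cpr97Ea and Cpr62Bb came next. The order among the leading genes differed between the groups. In both + Phenotype libraries Cpr65Au was close to or above Cpr100A, with 348 and 362 FPKM for Cpr65Au beside 369.95 and 255 FPKM for Cpr100A, whereas in both No Phenotype libraries Cpr100A was above Cpr65Au, with 627 and 1127.7 FPKM beside 474 and 395 FPKM.

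**Figure D1:**
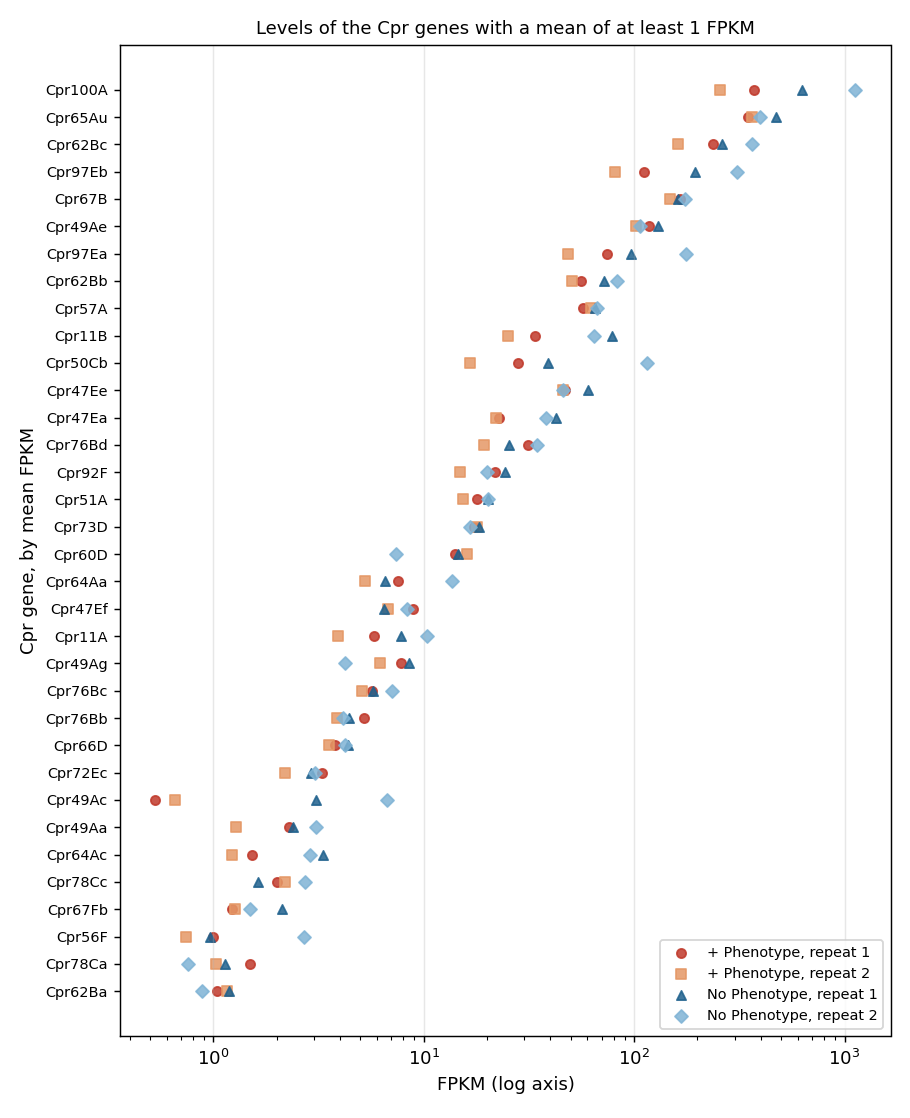
FPKM (log axis) of the 34 Cpr genes tested in each of the 4 head libraries, with + Phenotype and No Phenotype libraries marked separately and the 2 points of each group standing for its repeats. Cpr100A reached 1127.7 FPKM in No Phenotype repeat 2, and its + Phenotype values lay at 369.95 and 255 FPKM.

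Summed over all 70 genes, Cpr FPKM was lower in both + Phenotype libraries than in both No Phenotype libraries. The sums were 1835.9 and 1515.8 FPKM in + Phenotype and 2476.4 and 3249.7 FPKM in No Phenotype, which are means of 1675.8 ± 226 and 2863.0 ± 547 FPKM (SD, n = 2 each) and a ratio of 0.585. Without Cpr100A the sums were 1465.9 and 1260.7 FPKM in + Phenotype and 1849.1 and 2122.0 FPKM in No Phenotype, a ratio of 0.687. With 2 libraries against 2, the smallest two-sided p that an exact permutation test can give is 0.333, so that test could not pass for a single sum, and no other test of the sums was made.

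Of the 70 genes, 34 reached a mean of 1 FPKM and were tested in the fit across all genes (limma on log2(FPKM + 1), two-sided, Benjamini-Hochberg adjusted p under 0.1). None of the 34 passed, beside 0.0883% of all 10194 genes tested, and the lowest adjusted p of a Cpr gene was 0.11. At an unadjusted p under 0.05 there were 11 Cpr genes, all at lower values in + Phenotype, beside 6.67% of all genes in that direction. In the fitted values, 27 of the 34 were lower in + Phenotype, beside 37.3% of all genes tested, and 7 higher, with a median log2 fold change of -0.27 beside 0.07 over all genes tested. In 18 of the 34 both + Phenotype libraries were below both No Phenotype libraries, beside 18.3% of all genes tested, and in 0 both were above, beside 41.3% of all genes tested. The remaining 16 overlapped between the groups. These counts describe genes that passed the filter on level. Cpr49Ac, Cpr56F and Cpr78Ca reached it with 1 group mean under 1 FPKM. Over all 70 genes, 30 were lower in both + Phenotype libraries, beside 15% of all rows, and 4 were higher in both, beside 31.4% of all rows.

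**Figure D2:**
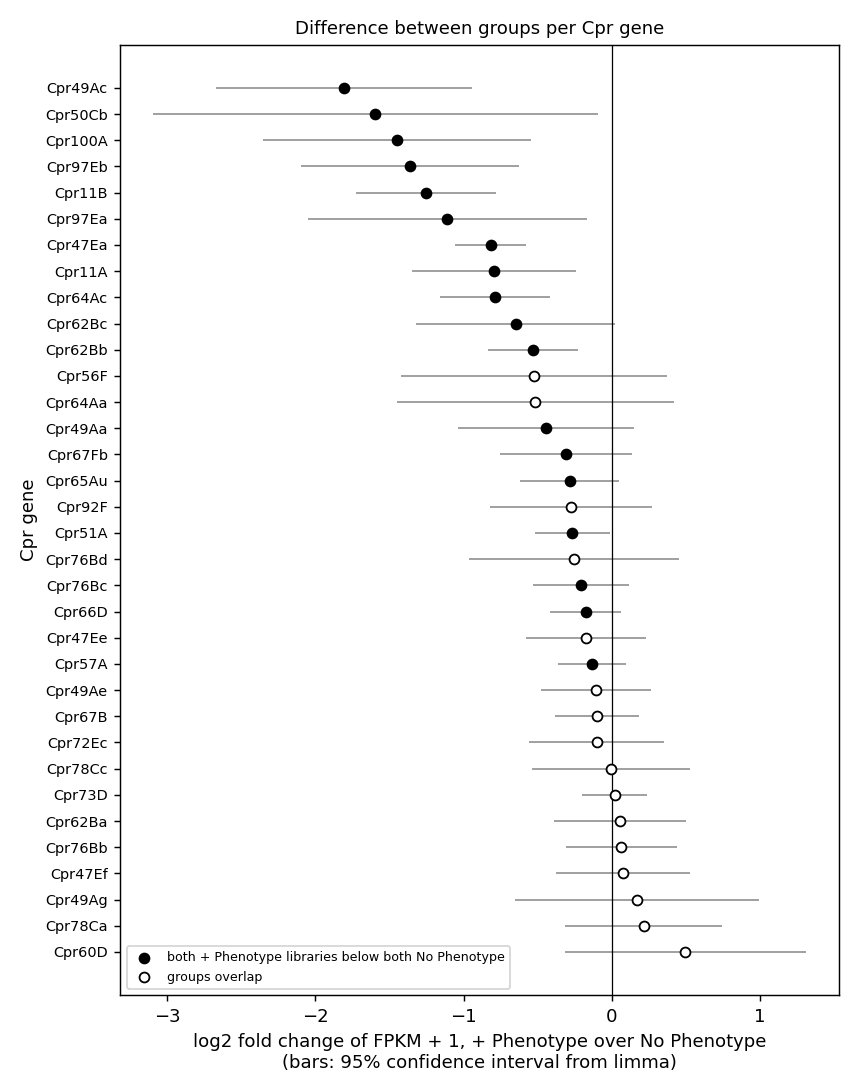
Log2 fold change (+ Phenotype over No Phenotype, on the log2(FPKM + 1) scale) of the 34 Cpr genes tested, with 95% confidence intervals from limma. The points run between -1.81 for Cpr49Ac and 0.50 for Cpr60D, and 27 of the 34 lie below 0.

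Cpr100A, the most abundant member, encodes a cuticle protein with the RR motif whose gene lies at chr3R:30867521-30869184 (dm6). It had 369.95 and 255 FPKM in + Phenotype and 627 and 1127.7 FPKM in No Phenotype. Both + Phenotype libraries were below both No Phenotype libraries, and No Phenotype repeat 2 was the highest. The means were 313 ± 81.2 and 877 ± 354 FPKM (SD, n = 2 each), with a log2 fold change of -1.45 ± 0.34 (SE) and an adjusted p of 0.15 in the limma fit. The gap between its 2 No Phenotype repeats was wider, as a ratio, than the gap between the nearest libraries of the 2 groups.

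The neighbors Cpr97Ea and Cpr97Eb, on the same strand of 3R (27083130 to 27087778 and 27089704 to 27091130), had a similar order of libraries. Cpr97Eb had 111 and 81.1 FPKM in + Phenotype and 195 and 309 FPKM in No Phenotype (log2 fold change -1.36 ± 0.28 SE, adjusted p = 0.15 by limma). Cpr97Ea had 74.5 and 48.6 FPKM in + Phenotype and 97.1 and 177 FPKM in No Phenotype (-1.11 ± 0.36, adjusted p = 0.19). In both genes No Phenotype repeat 2 was the highest library, + Phenotype repeat 2 the lowest, and the groups did not overlap.

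Cpr50Cb on 2R (13794777 to 13805231) turned most on a single library. It had 28.2 and 16.6 FPKM in + Phenotype and 39.1 and 116 FPKM in No Phenotype. The groups did not overlap, but No Phenotype repeat 2 was 2.95 times repeat 1, and the fold change of -1.60 on the log2 scale had an SE of 0.57 (adjusted p = 0.21 by limma). Cpr49Ac, also on 2R (12386666 to 12390057), was a low gene with the largest fitted difference at a pseudocount of 1. It had 0.53 and 0.66 FPKM in + Phenotype and 3.06 and 6.66 FPKM in No Phenotype (-1.81 ± 0.33, adjusted p = 0.13). At such levels the pseudocount decides the size: the log2 fold change was -2.74 with a pseudocount of 0.1, and the + Phenotype mean was 0.122 times the No Phenotype mean in FPKM. Both No Phenotype values were several times both + Phenotype values, and again No Phenotype repeat 2 was the highest.

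Cpr11B on X (12553124 to 12554235) and Cpr47Ea on 2R (11251751 to 11253398) separated the groups with closer repeats. Cpr11B had 33.7 and 25.2 FPKM in + Phenotype and 78.1 and 64.3 FPKM in No Phenotype (-1.25 ± 0.18, adjusted p = 0.12 by limma). Cpr47Ea had 22.8 and 22.0 FPKM in + Phenotype and 42.7 and 38.0 FPKM in No Phenotype (-0.82 ± 0.09, unadjusted p = 0.00043, adjusted p = 0.11). In these 2 genes No Phenotype repeat 1 was above repeat 2, unlike in Cpr100A, Cpr97Ea and Cpr97Eb. An exon of Cpr47Ea shares bases with the odorant receptor gene Or47a on the other strand, which stood at 1.28 to 1.45 FPKM in every library.

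Among the other abundant members, Cpr62Bb had 55.7 and 50.5 FPKM in + Phenotype and 71.6 and 83.2 FPKM in No Phenotype (-0.53 ± 0.11, adjusted p = 0.15 by limma). Its neighbor Cpr62Bc had 238 and 162 FPKM in + Phenotype and 262 and 364 FPKM in No Phenotype (-0.65 ± 0.26, adjusted p = 0.23). The groups were apart in both genes, in Cpr62Bc by less than either group's repeats. Cpr11A had 5.78 and 3.92 FPKM in + Phenotype and 7.79 and 10.4 FPKM in No Phenotype (-0.79, adjusted p = 0.16). Cpr64Ac and Cpr51A were looked at outside the naming rule, as members at an unadjusted p under 0.05. Cpr64Ac had 1.53 and 1.22 FPKM in + Phenotype and 3.33 and 2.87 FPKM in No Phenotype (adjusted p = 0.13), and Cpr51A had 18.0 and 15.4 FPKM in + Phenotype and 20.2 in both No Phenotype libraries (adjusted p = 0.21). Neither had overlapping groups.

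Calls of Cpr genes depended on the filter and on which libraries were kept. With a mean of at least 5 FPKM required, 2 of 23 Cpr genes passed, Cpr47Ea (adjusted p = 0.079) and Cpr11B (adjusted p = 0.090), both lower in + Phenotype, beside 0.531% of all genes tested in that direction. Without No Phenotype repeat 2, Cpr47Ea alone passed, beside 1.11% of all genes tested that were called lower. Without No Phenotype repeat 1, 6 passed at lower values (Cpr49Ac, Cpr47Ea, Cpr97Eb, Cpr100A, Cpr50Cb and Cpr62Bb), beside 3.38% of all genes, and Cpr60D passed at higher values, beside 1.61% of all genes. Without + Phenotype repeat 1, and likewise without + Phenotype repeat 2, 0 passed by limma, with 13 at an unadjusted p under 0.05 without repeat 1 and 5 without repeat 2. All of these were at lower values, beside 4.79% of all genes tested without repeat 1 and 3.04% without repeat 2. In these fits the lone library of a group is assumed to vary like those of the other group.

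Several abundant members showed no separation or a small one. Cpr67B had 166 and 148 FPKM in + Phenotype and 162 and 174 FPKM in No Phenotype. The groups overlapped, and the 95% interval of its log2 fold change ran from -0.38 to 0.18. Cpr49Ae had 117 and 102 FPKM in + Phenotype and 130 and 107 FPKM in No Phenotype, also overlapping, with an interval from -0.48 to 0.27. Cpr47Ee had 47.2 and 45.8 FPKM in + Phenotype and 60.5 and 45.6 FPKM in No Phenotype, with 1 library above the other 3. Cpr65Au, the second most abundant member, had 348 and 362 FPKM in + Phenotype and 474 and 395 FPKM in No Phenotype, apart but with an interval from -0.62 to 0.05 (adjusted p = 0.26 by limma). Cpr57A had 57.2 and 62.1 FPKM in + Phenotype and 64.9 and 66.3 FPKM in No Phenotype, apart by a small margin, with an interval from -0.37 to 0.09. Cpr65Au also shares exon bases with an antisense RNA gene on the other strand, for which no value was found, so its level carries that uncertainty. Cpr57A shares exon bases with Obp57d, an odorant-binding protein gene on the same strand. Its level carries that uncertainty too, though Obp57d stood at only 0.48 to 0.67 FPKM. Each of these intervals leaves room for a difference in either direction, and the lower bounds allow values in + Phenotype down to -0.62 on the log2 scale for Cpr65Au.

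The 7 genes with higher fitted values in + Phenotype all overlapped between the groups. Cpr60D had 14.1 and 16.1 FPKM in + Phenotype and 14.5 and 7.34 FPKM in No Phenotype (0.50, interval -0.32 to 1.31, adjusted p = 0.38 by limma), so that its difference rested on No Phenotype repeat 2. Cpr49Ag had 7.83 and 6.17 FPKM in + Phenotype and 8.55 and 4.24 FPKM in No Phenotype, and here too repeat 2 of No Phenotype was the lowest library. Cpr73D had 17.3 and 17.9 FPKM in + Phenotype and 18.3 and 16.5 FPKM in No Phenotype. Its exons overlap those of Ogdh, a gene of the citric acid cycle on the other strand that stood at 227 to 259 FPKM, and no source says whether the counting used strand, so its level is uncertain. Its fitted difference was 0.02 and turned negative after scaling by median ratios. Cpr78Ca, Cpr76Bb, Cpr47Ef and Cpr62Ba, the other 4, had log2 fold changes between 0.05 and 0.22 and levels between 0.76 and 8.92 FPKM.

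By place on the genome, 49 of the 70 genes shared their number and letter with at least 1 other and formed 12 clusters, and 21 stood alone. Within a cluster, 1 gene usually held most of the RNA. Cpr65Au made up 99.9% of the summed level of the 7 genes at 65A, Cpr50Cb 99.8% of the 2 at 50C and Cpr49Ae 89.3% of the 8 at 49A, so neighbors a few kilobases apart had levels that differed by more than the spread between libraries. The 3 genes at 65E summed to at most 0.52 FPKM in any library.

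The clusters differed in how the groups compared. The genes at 97E summed to 186 and 130 FPKM in + Phenotype and to 292 and 486 FPKM in No Phenotype, a ratio of 0.406. Those at 62B summed to 295 and 214 FPKM in + Phenotype and to 335 and 448 FPKM in No Phenotype, a ratio of 0.65. Those at 49A summed to 129 and 111 FPKM in + Phenotype and to 146 and 124 FPKM in No Phenotype, a ratio of 0.889 with overlapping groups. At 49A the ratio was near that of Cpr49Ae (0.926), while its low neighbor Cpr49Ac had the largest fitted difference of the 34 at a pseudocount of 1. At 47E the sums were 79.6 and 75.5 FPKM in + Phenotype and 111 and 94.0 FPKM in No Phenotype, where Cpr47Ea separated the groups and Cpr47Ee and Cpr47Ef did not. Differences between clusters or between neighbors were not tested. By chromosome arm, the fitted values were lower in + Phenotype for 2 of 2 genes tested on X, 9 of 12 on 2R, 12 of 16 on 3L and 4 of 4 on 3R, and none of the 5 genes on 2L reached 1 FPKM.

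**Figure D3:**
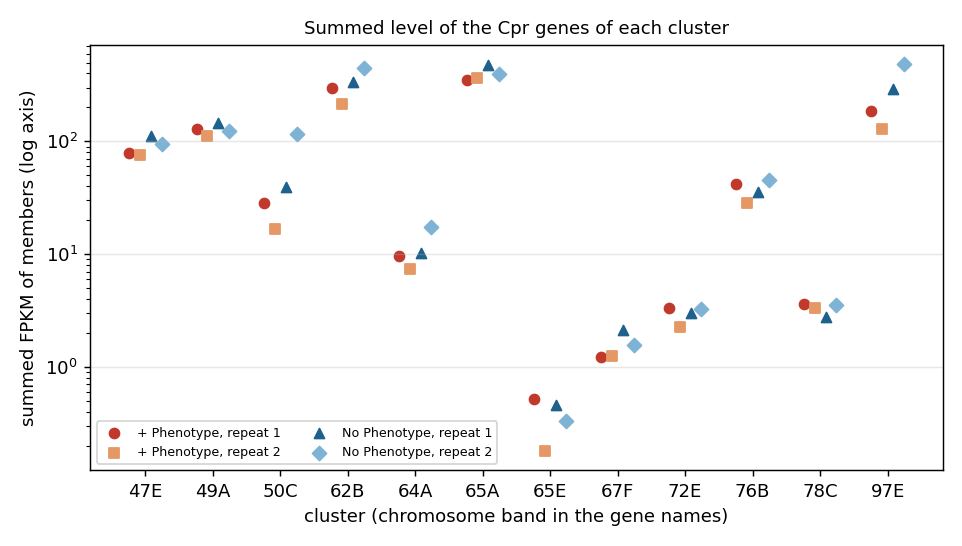
Summed FPKM (log axis) of the Cpr genes in each of the 12 clusters that share a number and letter, by library, with + Phenotype and No Phenotype libraries marked separately. The 97E sums were 186 and 130 FPKM in + Phenotype and 292 and 486 FPKM in No Phenotype, while the 49A sums overlapped.

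The repeats of one group differed more in the Cpr genes than in most genes. Among the 34 tested, the median size of the difference between repeats on the log2(FPKM + 1) scale was 0.21 in + Phenotype and 0.28 in No Phenotype, beside 0.10 in + Phenotype and 0.12 in No Phenotype over all genes tested. In + Phenotype, repeat 1 was above repeat 2 in 26 of the 34, beside 39.4% of all genes tested. In No Phenotype, repeat 1 was below repeat 2 in 18 of the 34, beside 60.7% of all genes. The highest library was No Phenotype repeat 2 in 16 of the 34, beside 25.0% of all genes tested, and the lowest was + Phenotype repeat 2 in 22 of the 34, beside 18.6%. In 15 of the 34 the difference between the group means was larger than the difference between repeats in both groups, beside 45.9% of all genes.

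The widest gaps between repeats were in Cpr50Cb, with a log2 difference of 0.73 in + Phenotype and -1.54 in No Phenotype (repeat 1 minus repeat 2). Cpr64Aa had 7.56 and 5.28 FPKM in + Phenotype and 6.55 and 13.6 FPKM in No Phenotype, and Cpr56F had 1.00 and 0.74 FPKM in + Phenotype and 0.96 and 2.68 FPKM in No Phenotype. In each of these 2 genes No Phenotype repeat 2 was at least 1.5 times every other library and the groups overlapped. Cpr76Bd had 31.2 and 19.4 FPKM in + Phenotype and 25.3 and 34.6 FPKM in No Phenotype, so its repeats were further apart than its groups. Cpr92F also overlapped, with 21.8 and 14.8 FPKM in + Phenotype and 24.3 and 19.9 FPKM in No Phenotype.

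**Figure D4:**
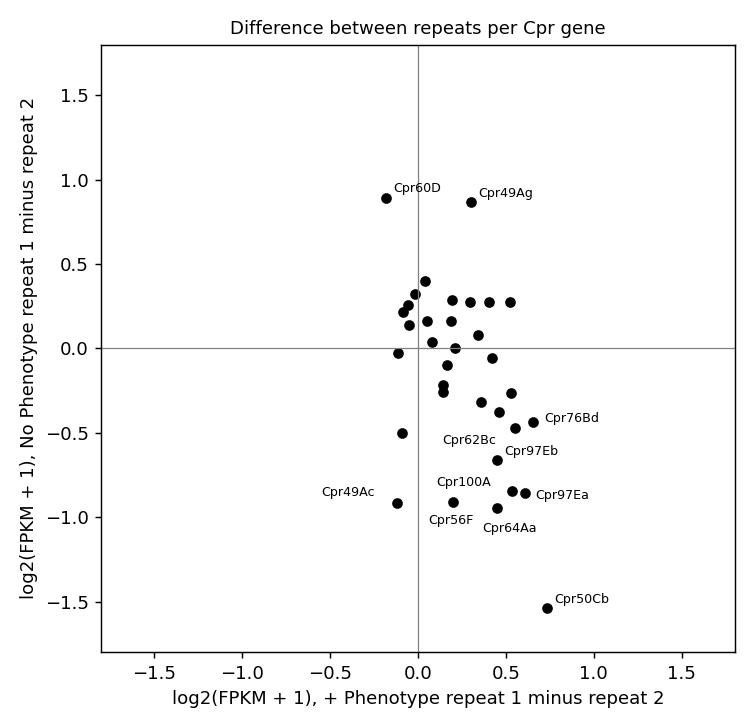
Difference between repeats (repeat 1 minus repeat 2, log2(FPKM + 1)) of the 34 Cpr genes tested, in + Phenotype on the horizontal axis and in No Phenotype on the vertical axis, each point being a gene. In 26 of 34 genes the + Phenotype difference was above 0, and Cpr50Cb lies farthest from the origin with 0.73 and -1.54.

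The 36 genes under the filter were read in approximate reads, found from FPKM, transcript length and the value of 1 read in each library. This was possible for 29 of the 33 above 0, those with a single annotated transcript. Cpr12A and Cpr49Ab, named here after their values were seen, were low genes with wide separation. Cpr12A had about 2.2 and 1.9 reads in + Phenotype and 12.8 and 13.9 reads in No Phenotype. Cpr49Ab, next to Cpr49Ac, had about 15.9 and 7.1 reads in + Phenotype and 34.8 and 82.9 reads in No Phenotype. Both pairs were apart by more than a factor of 2, without a test. Of the 36, 12 were lower in both + Phenotype libraries, beside 9.98% of all rows under the filter, and 4 higher, beside 15.8%. In 7 of the 11 lower ones with a single transcript, the groups stood at most 2 reads apart, a margin too small to read at this depth. Cpr65Ax1 and Cpr65Ax2, and likewise Cpr67Fa1 and Cpr67Fa2, are close copies whose reads the counting could have split, and their levels of 0 to 0.31 FPKM are uncertain.

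**Figure D5:**
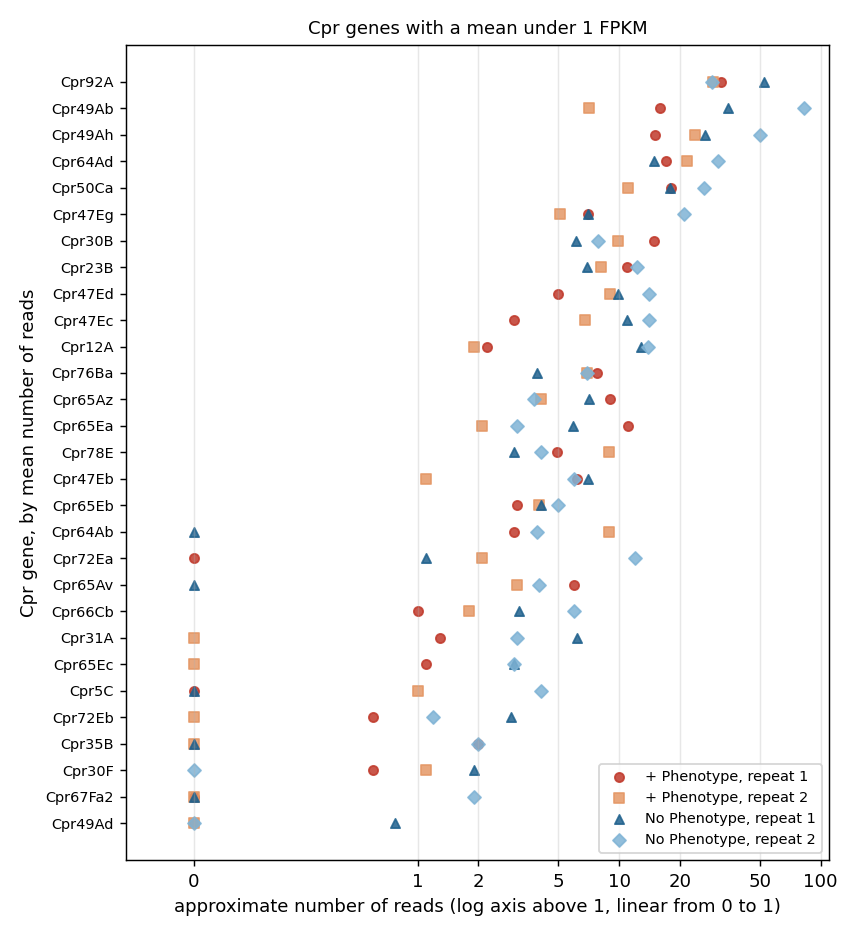
Approximate reads per library of the Cpr genes with a mean under 1 FPKM, a single annotated transcript and at least 1 library above 0, with + Phenotype and No Phenotype libraries marked separately. Cpr12A stood at about 2.2 and 1.9 reads in + Phenotype and 12.8 and 13.9 reads in No Phenotype, while most others were low in all 4 libraries.

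Cpr66D and Cpr72Ec, outside the naming rule, are known as proteins of the corneal lens, the cuticle secreted over each eye facet. Cpr66D had 3.79 and 3.54 FPKM in + Phenotype and 4.34 and 4.21 FPKM in No Phenotype, apart by a small margin (-0.18, interval -0.42 to 0.06, adjusted p = 0.30 by limma). Cpr72Ec had 3.29 and 2.20 FPKM in + Phenotype and 2.90 and 3.05 FPKM in No Phenotype, with overlap (-0.10, interval -0.56 to 0.35). Crys, the lens protein drosocrystallin that shares the RR motif, stood higher, at 44.8 and 27.4 FPKM in + Phenotype and 55.8 and 61.4 FPKM in No Phenotype (-0.72, adjusted p = 0.20). Its groups did not overlap, whereas those of retinin, another lens protein gene, did, with 72.8 and 50.1 FPKM in + Phenotype and 119 and 49.9 FPKM in No Phenotype.

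In gene structure, which the selection by name did not use, 23 of the 70 genes (32.9%) have at least 3 exons in their longest transcript. The share was 18 of 34 among the genes tested and 5 of 36 among those under the filter. Of the 18 tested genes without overlap between groups, 13 have at least 3 exons, against 5 of the 16 that overlapped. Coding lengths run from 93 to 1231 codons with a median of 179.5. These shares are descriptions, without a test and without the share over all genes. They cannot show whether exon number and the difference between groups are linked or not.

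Genes that work with the Cpr proteins were read from lists of names. Of 27 genes with the RR motif under other names (such as Lcp, Ccp and Acp), 11 were tested, and 0 passed by limma, with 5 at an unadjusted p under 0.05, beside 22.7% of all genes tested in either direction. Their median log2 fold change was -0.73 (-0.27 for the Cpr genes and 0.07 over all genes), and 8 of the 11 were lower in both + Phenotype libraries, beside 18.3% of all genes tested. Lcp65Ac, a larval cuticle protein gene by name, had 6.40 and 2.01 FPKM in + Phenotype and 13.7 and 40.2 FPKM in No Phenotype. Ccp84Ac and Lcp65Ag2 overlapped between the groups. Edg78E, an ecdysone-dependent gene, was higher in both + Phenotype libraries, with 2.88 and 2.19 FPKM in + Phenotype and 1.5 and 1.31 FPKM in No Phenotype.

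Of 36 matched cuticle protein genes of other families, 13 were tested, 0 passed by limma (6 at an unadjusted p under 0.05), and all 13 were lower in the fit, with a median of -0.63. Gasp, a chitin-binding protein gene, had 165 and 111 FPKM in + Phenotype and 287 and 400 FPKM in No Phenotype (-1.32, adjusted p = 0.14). For chitin synthesis and modification, 24 of 27 were tested and 0 passed by limma (14 at an unadjusted p under 0.05), with 17 lower, 7 higher and a median of -0.67. Over all genes tested, 22.7% were at an unadjusted p under 0.05 and 37.3% were lower in the fit. The chitin synthase gene kkv had 18.8 and 11.4 FPKM in + Phenotype and 29.4 and 54.7 FPKM in No Phenotype, and the chitin deacetylase gene verm had 133 and 84.5 FPKM in + Phenotype and 275 and 481 FPKM in No Phenotype. Gasp, kkv and verm, picked outside the naming rule, showed the full library order of Cpr100A. From highest to lowest it was No Phenotype repeat 2, No Phenotype repeat 1, + Phenotype repeat 1 and + Phenotype repeat 2. That full order held in 9 of the 34 Cpr genes tested, beside 7.47% of all genes tested. Acp1 and Edg91, of the other cuticle families, were highest in No Phenotype repeat 1. Acp1 had 2636 and 1867 FPKM in + Phenotype and 3735 and 2915 FPKM in No Phenotype. The 7 higher genes of the chitin list were Idgf1, Idgf2, Idgf3, Idgf4, Idgf5, CG5210 and Gfat2. For tanning, 17 genes were tested with 0 passing by limma (5 at an unadjusted p under 0.05) and a median of -0.07. For regulators of cuticle genes, 19 were tested with 0 passing by limma, 0 at an unadjusted p under 0.05, and a median of -0.09.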

How the data were processed

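The authors aligned single-end 50-cycle reads to RefSeq mRNAs (dm6) with Bowtie 2 and made the deposited FPKM per gene with RSEM. The submitters' processing notes also name dm3, and no source used here gives tool versions. FPKM are given to 2 decimals, and 93.1 to 95.2% of low values lay within 0.2 read of a whole number. The total depth was estimated from these steps. FPKM are not counts, so the EBSeq test of the methods was replaced by limma 3.58.1 (R 4.3.3; trend, Benjamini-Hochberg) on log2(FPKM + 1) for genes whose mean reached 1 FPKM. The pseudocount understates changes of low genes. The study calls the repeats independent, and crosses were repeated, but which cross gave which library is not stated, so p-values measure the spread between these libraries. Current symbols were found for 16568 of the 16680 names, and coordinates come from Ensembl's dm6 annotation. The members and lists were chosen with earlier results of these data known. Named genes are the 15 highest, those past the threshold, up to 8 per direction with the largest change and no overlap (filled by smallest p), and the 4 with the widest repeat differences in each group. Others are said to be outside the rule. The fit was tested on simulated data. Alternatives were pseudocount, filters, scaling, trend, threshold, a replicate block and each library left out. No sequences are printed here.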

Additional observations from a re-analysis of the deposited data

How the results depend on the processing

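The count of Cpr genes passing was 0 and moved to 2 with a mean of at least 5 FPKM and between 0 and 7 when 1 library was left out. Over all genes, 9 passed, against 23 with a pseudocount of 0.1, 3 with no filter, 109 at a mean of at least 5 FPKM, 4 after median-ratio scaling, 5 without trend, 4 at an adjusted p under 0.05, and 0 to 509 without 1 library. The median log2 fold change of the Cpr genes was -0.27, with -0.11 under no filter and -0.34 to -0.17 without 1 library. It was -0.345 after scaling, which moved the median of all genes from 0.07 to -0.00060. Cpr genes lower without overlap numbered 18, against 30 with no filter and 18 to 26 without 1 library. Higher ones numbered 0, against 4 with no filter and 1 to 6 without 1 library. Leaving out a library cannot reduce these counts, because groups that were apart stay apart. The matching share over all genes was not counted without 1 library, so the rise in either direction cannot be read as a stronger difference. The summed ratio of 0.585 ran from 0.516 to 0.677 without 1 library. With the replicate number as a block, 0 genes and 0 Cpr genes passed by limma (2070 and 8 at an unadjusted p under 0.05). The differences between repeats of the 2 groups had a correlation of -0.13 over all genes and -0.48 over the Cpr genes. Whether repeats with the same number were made together is not stated, and these correlations cannot show it. With the crossed pairing, chosen after seeing the data, 404 genes and 9 Cpr genes passed. Of the 281 alternative values of named genes, 251 kept direction and call, 19 passed the threshold and 11 changed sign. Of the 19, 9 came from the crossed pairing, and the others came from the filter of 5 FPKM and the fits without 1 library. Over the fits without 1 library, the values of the genes that changed sign ran from -0.37 to 0.026 for Cpr47Ee, -0.10 to 0.25 for Cpr47Ef, -0.25 to 0.036 for Cpr49Ae, -0.26 to 0.60 for Cpr49Ag, -0.055 to 0.16 for Cpr62Ba, -0.052 to 0.089 for Cpr73D, -0.11 to 0.24 for Cpr76Bb and -0.58 to 0.072 for Cpr76Bd. Scaling gave -0.055 for Cpr73D. The cause of these moves was not tested. With 2 libraries per group, the spread limits what can be called, and under about 3 reads a level is at the counting limit.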
